A study of Mus musculus with 6 samples.

Results

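Contactins and the L1 family are adhesion molecules of the neural cell surface, and their transcripts were measured here in cultured mouse neural stem cells of 2 brain regions. The set holds 10 genes: the contactins Cntn1 to Cntn6 and the L1 family genes L1cam, Chl1, Nrcam and Nfasc. All 10 were measured, out of 19938 genes in all, and each had 1 probe set. The genes were named as a family, with the earlier calls of Cntn1 and Chl1 in these data known, and the probe set of a gene was chosen by its mean over the 6 arrays. The calls of Cntn1 and Chl1 are therefore given as a description.

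The cells came from the subventricular zone of the lateral ventricle (3 arrays) and from that of the third ventricle (3 arrays). In both groups the embryos were wild-type female C57BL/6 mice of embryonic day 17.5, and no gene was altered. The cells grew unattached in DMEM/Neurobasal with the supplements N2 and B27, to which 20 ng/ml of EGF and 20 ng/ml of FGF were added, so the values describe a growth-factor culture and not the tissue. The labels call the arrays of a group biological replicates from 3 females, without saying which animal gave which array. The p-values below therefore reflect only how these cultures varied.

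Contactins are immunoglobulin superfamily proteins held at the membrane by a lipid anchor, while L1 family proteins span the membrane and bind ankyrin and the spectrin cytoskeleton with their short inner tail. Members of both families bind each other, receptor phosphatases, matrix proteins and guidance receptors, in cis on the same cell or in trans between cells. They are best known for axon growth and bundling and for the assembly of the node of Ranvier.

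Values are log2 expression after RMA, in which 1 unit is a doubling. A level is compared only with that of the same gene on other arrays, because probe sets of different genes bind their targets with different strength. As a gauge of background, the 95th percentile of 1027 olfactory receptor genes was taken on each array, and it lay between 5.03 and 5.16. The median of all probe sets lay between 5.43 and 5.47. Lateral ventricle array 2 was closer to the third ventricle arrays than to the other lateral arrays. Across genes, which are not independent replicates, its correlation with the third ventricle arrays was 0.9914 or 0.9915, and with lateral ventricle arrays 1 and 3 it was 0.9798 and 0.9824. Calls of named genes that changed when it was left out are given both ways. The fit without it called 8.25% of all genes, 4.37% as higher and 3.88% as lower in the third ventricle. With all 6 arrays 0.231% were called. Leaving it out removes the lateral array most like the third ventricle, which by itself can widen differences. A call made only without it is therefore a description and not added support. Of 11 measured markers of neural stem and progenitor cells, 10 lay above the gauge on all 6 arrays, among them Sox2, Nes, Vim and Fabp7. Of the 11, 4 had a positive and 7 a negative difference in all 6 arrays, and the median was -0.04. In limma 0 of them passed. Without lateral ventricle array 2 the median was -0.12 and 1 passed, as higher. It was Nes, which encodes a filament protein (0.86, adjusted p = 0.0103, against 0.53, adjusted p = 0.449, in all 6 arrays).

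Cntn1 was lower and Chl1 higher in the third ventricle cultures, and the other 8 genes did not pass the test. In the limma model fitted over all genes (Benjamini-Hochberg adjustment, threshold 0.05), 0.231% of all genes were called, 0.145% as higher and 0.0853% as lower. Of the 10 members, 1 was called as higher and 1 as lower. At an unadjusted p below 0.05 there were 4 members, Cntn1, Chl1, Cntn6 and Nrcam, against 2521 of the 19938 genes (12.6%). The 3 arrays of a region lay wholly above or below those of the other in the same 4 members, which compares with 17.0% of all genes. The median difference was 0.02 over the members and -0.02 over all genes.

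**Figure D1:**
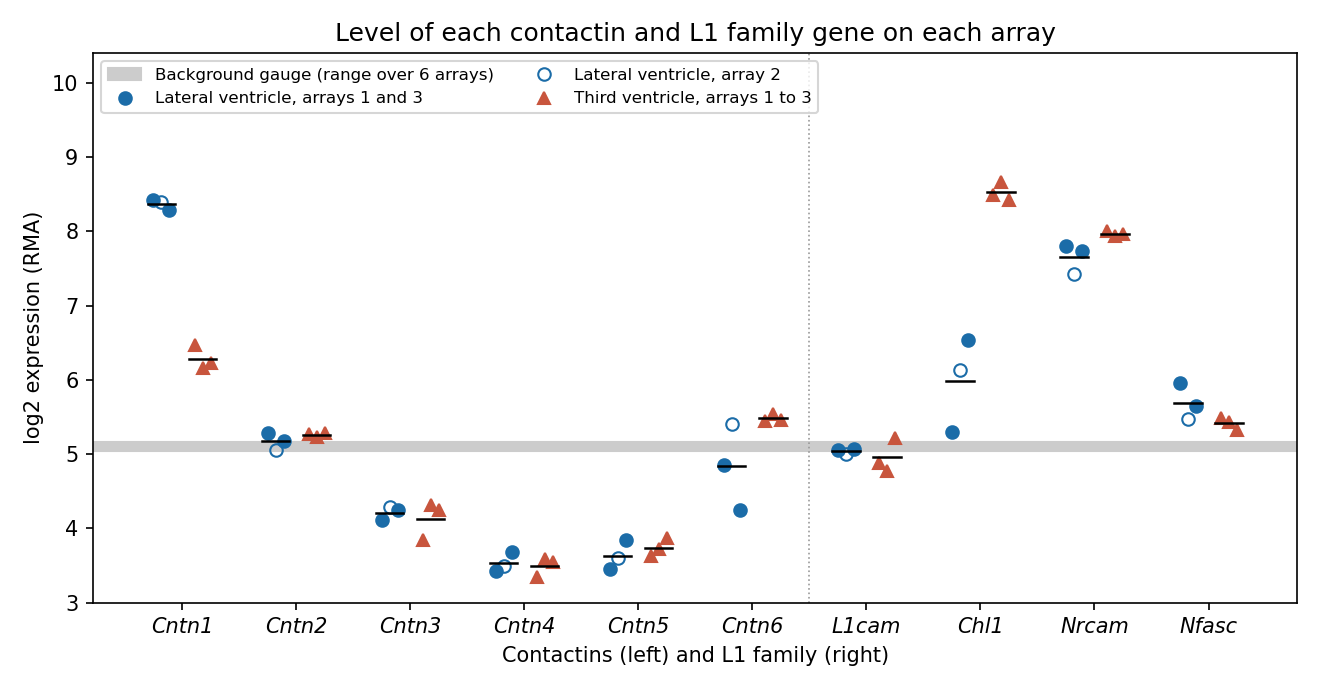
Log2 expression (y axis) of each of the 10 genes (x axis) on each of the 6 arrays, with circles for the lateral and triangles for the third ventricle, an open circle for lateral ventricle array 2, and a bar at each group mean of 3 arrays. The grey band is the range of the background gauge over the arrays, 5.03 to 5.16. Cntn1 and Chl1 separate widely in opposite directions, and Cntn3, Cntn4 and Cntn5 lie under the band on every array.

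Cntn1 encodes contactin-1, a surface protein of neurons and oligodendrocyte lineage cells that binds Ptprz1, tenascins and the Caspr protein Cntnap1. It lay at 8.42, 8.40 and 8.29 in lateral ventricle arrays 1, 2 and 3 and at 6.46, 6.16 and 6.22 in the third ventricle arrays. All lateral arrays were high, all the third ventricle arrays low but above the gauge, and the groups did not overlap. The means were 8.37 ± 0.07 and 6.28 ± 0.16 (SD, n = 3), a log2 difference of -2.09 (95% interval -2.34 to -1.84), which is a level 4.26-fold higher in the lateral cultures (3.58 to 5.07). The adjusted p was 0.000523, the second lowest p of all genes. In size the difference was the ninth, and 0.0401% of genes had a larger one. The lateral arrays spanned only 0.13, and 84.4% of genes had a wider span there. Lateral ventricle array 2 did not stand apart at Cntn1: the difference was -2.08 without it and -2.12 from it alone.

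Chl1 encodes the close homologue of L1, a protein of growing axons and dendrites that is shed from the cell by the protease Bace1. It lay at 5.30, 6.13 and 6.54 in lateral ventricle arrays 1, 2 and 3 and at 8.48, 8.66 and 8.42 in the third ventricle arrays. The third ventricle arrays were high and close together, while the lateral arrays were low and spread over 1.25, a span that 2.08% of genes exceeded. The means were 5.99 ± 0.63 and 8.52 ± 0.13 (SD, n = 3), a log2 difference of 2.53 (95% interval 1.90 to 3.17), or 5.78-fold (3.72 to 8.99). The adjusted p was 0.0172, and 3 genes had a larger difference. The size varied with the lateral culture, from 3.22 against array 1 to 2.39 against array 2 and 1.98 against array 3. The difference was 2.60 without lateral ventricle array 2 (adjusted p = 0.00177), but the call was lost without array 1 (2.55, adjusted p = 0.120), array 2 (2.46, adjusted p = 0.167) or array 3 (2.59, adjusted p = 0.119) of the third ventricle.

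Bases near the starts of both genes are shown because these are the members that passed the test. They come from the RefSeq promoter table of build GRCm38.p6 and lie on the plus strand. Cntn1 has 3 listed promoters, and which of them the probe set reflects cannot be told. Of the first, the 237 bases before the gene's start are shown, at chr15:92050915-92051151. For Chl1, a further RefSeq model starts upstream of the listed promoter, so only the 30 bases around its motif match are shown, at chr6:103510719-103510748. Capitals mark matches to the searched motifs on either strand.
Cntn1: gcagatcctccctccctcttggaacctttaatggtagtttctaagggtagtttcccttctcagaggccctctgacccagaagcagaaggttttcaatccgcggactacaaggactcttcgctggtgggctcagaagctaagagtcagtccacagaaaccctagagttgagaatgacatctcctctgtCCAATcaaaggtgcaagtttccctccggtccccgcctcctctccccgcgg
Chl1: gcaaagttttctCTTTGTccctcgcttttc

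The searched motifs were the GC box GGGCGG, the box CCAAT, the box TATAAA, the Sox core ACAAAG and the E box CAGCTG, each on both strands in the 250 bases before a start. The first promoter of Cntn1 held CCAAT at 2 places, of which 1 lies in the bases shown. The other ends outside those bases, at or past the gene's start. This box was in 33.8% of the 32851 promoters of the table. Chl1 held ACAAAG on the minus strand, printed above as its reverse complement, and 16.5% of promoters hold it. The GC box, found in 32.7%, the TATAAA box, in 12.4%, and the E box, in 13.0%, had no match in the first promoter of Cntn1 or in that of Chl1. The second listed promoter of Cntn1 held the TATAAA box once, and the third held CCAAT at 2 places. The first promoter of Cntn1 had 7 CpG dinucleotides and 53.6% G and C, and that of Chl1 8 and 52.4%, against medians of 6 and 52.4% over the table. The second and the third promoter of Cntn1 had 3 CpG each, with 32.8% and 43.6% G and C. Of the other members, Nrcam, above the gauge, had 25 CpG, and Cntn5, below it, had 24 and 26 in its listed promoters, while Cntn3, also below it, had 0. A match describes letters in this window and was not tested for binding.

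Cntn6 encodes contactin-6, a neuronal contactin and Notch ligand. It lay at 4.86, 5.40 and 4.24 in lateral ventricle arrays 1, 2 and 3 and at 5.44, 5.54 and 5.46 in the third ventricle arrays. The third ventricle arrays were tightly grouped above the gauge, while only array 2 of the lateral cultures was above it, just below the third ventricle values. The difference was 0.65 (95% interval 0.07 to 1.22, adjusted p = 0.358), which did not pass. Without lateral ventricle array 2 it was 0.93 (adjusted p = 0.0133), and from that array alone it was 0.08. The lateral values behind the 0.93, those of arrays 1 and 3, lay below the gauge and are background values. Cell cycle genes also set lateral ventricle array 2 near the third ventricle. Relative to the mean of each gene, the median of 22 genes was -1.39 in array 1, 0.56 in array 2 and -0.88 in array 3. In the third ventricle arrays it was 0.55 to 0.60. Of the 22, 0 passed in limma (18 at an unadjusted p below 0.05, all higher, against 12.6% of all genes). All 22 passed without lateral ventricle array 2, against 8.25% of all genes. Their part in the Cntn6 value was not tested. Cntn1 and Chl1 did not follow array 2 in this way, as the plot of centred values by array shows.

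The remaining contactins were at or near background. Cntn2, or TAG-1, which clusters potassium channels beside the node together with Cntnap2, lay at 5.29, 5.05 and 5.17 in lateral and 5.27, 5.23 and 5.28 in the third ventricle arrays. It was above the gauge on 2 of 3 lateral arrays and on all 3 of the third ventricle, and the difference was 0.09 (-0.13 to 0.31, adjusted p = 0.754). Cntn3, a contactin that promotes neurite growth in culture, ranged from 3.84 to 4.31 over the 6 arrays. Cntn4, which guides olfactory and retinal axons, ranged from 3.34 to 3.68, and Cntn5, a contactin of the auditory pathway, from 3.46 to 3.87. Those 3 genes lay at or below the gauge on all 6 arrays, so their levels cannot be compared between the regions. Their differences were -0.08, -0.04 and 0.11.

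Among the L1 family, Nrcam and Nfasc were above the gauge on all 6 arrays, as was Chl1, but did not pass the test. Nrcam, which joins sodium channel clusters at the node and acts with neuropilins as a semaphorin receptor, lay at 7.80, 7.42 and 7.74 in lateral and 8.01, 7.94 and 7.96 in the third ventricle arrays. The third ventricle arrays were all higher, by 0.32 on average (95% interval 0.04 to 0.59, adjusted p = 0.351). Lateral ventricle array 2 was the lowest, and without it the difference was 0.20 (adjusted p = 0.278), while it was 0.55 from that array alone. Nfasc, or neurofascin, whose glial and neuronal forms organize the node from both sides, lay at 5.95, 5.47 and 5.65 in lateral and 5.49, 5.43 and 5.33 in the third ventricle arrays. Those groups overlapped at lateral ventricle array 2, and the difference was -0.27 (-0.58 to 0.03, adjusted p = 0.442). Without that array it was -0.39 (adjusted p = 0.102). L1cam, the founding member and a classic axon growth molecule, lay at 5.05, 5.01 and 5.07 in lateral and 4.88, 4.78 and 5.21 in the third ventricle arrays. It was above the gauge on 1 of 3 arrays in each region, and the difference was -0.09 (-0.37 to 0.20, adjusted p = 0.827).

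**Figure D2:**
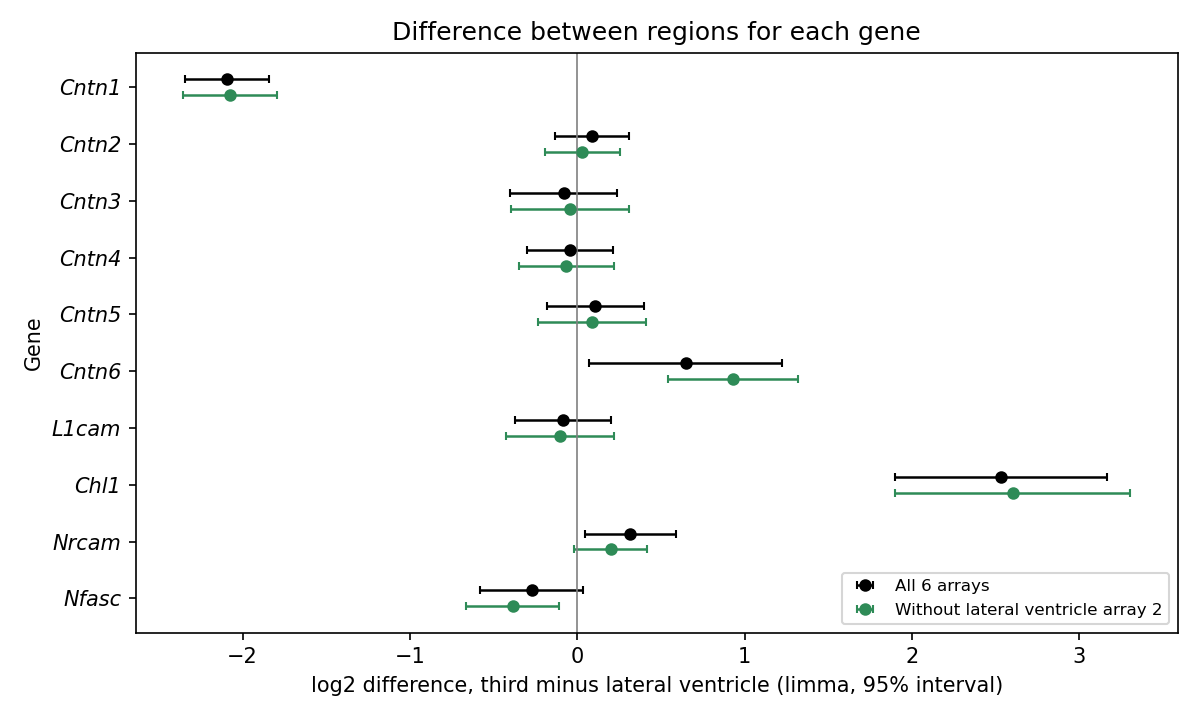
Log2 difference, the third minus the lateral ventricle (x axis), of each gene (y axis) in limma, with 95% intervals as bars, over all 6 arrays in black and without lateral ventricle array 2 in green. Cntn1 (-2.09 and -2.08) and Chl1 (2.53 and 2.60) lie far from 0 in both fits, and Cntn6 moves from 0.65 to 0.93.

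The genes around Chl1 and Cntn1 did not pass with them. In the protein-coding order of the reference gene table, Chl1 lies between Cntn3 on one side and Cntn6 and then Cntn4 on the other. Next to Chl1, with 2.53, those neighbours differed by -0.08, 0.65 and -0.04, and the next gene beyond Cntn3, the ubiquitin ligase gene Pdzrn3, by -0.40 (adjusted p = 0.545). Beside Cntn1, with -2.09, Smgc, at or below the gauge on all 6 arrays, differed by -0.21 and the kinase gene Lrrk2 by -0.15. On the other side, Pdzrn4 differed by 0.19 and the glycosyltransferase gene Gxylt1 by 0.03. None of the 8 neighbours passed (lowest adjusted p = 0.358, Cntn6).

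The genes with the profile most like that of Cntn1, by root mean square distance between values centred on the mean of each gene over the 6 arrays, were Pdgfra (0.22), Plppr5 (0.27), Pcdh15 (0.30), Stk32a (0.34) and Tmeff1 (0.34). Those of Chl1 were Foxd1 (0.42), Fndc3c1 (0.48), the transcript B130024G19Rik (0.52), Cacna2d3 (0.60) and Cybrd1 (0.60). Such likeness over 6 arrays largely restates the difference between the regions. Foxd1 and B130024G19Rik lay at or below the gauge on all 3 lateral arrays, so their profiles there are those of background values.

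Of the markers of the oligodendrocyte lineage, cells that carry contactin-1, 2 fell with Cntn1. Of 13 measured, these 2 passed as lower in the third ventricle cultures, Pdgfra (-1.79, adjusted p = 0.00707) and Lhfpl3 (-1.22, adjusted p = 0.00746), and 0 as higher. Without lateral ventricle array 2, 4 passed as lower: these 2, Gpr17 (-1.53, adjusted p = 0.0109) and Sox10 (-0.82, adjusted p = 0.0116). Of all genes, 0.0853% were called as lower in all 6 arrays and 3.88% without that array. In all 6 arrays Gpr17 differed by -1.35 (adjusted p = 0.133) and Sox10 by -0.74 (adjusted p = 0.118), with no overlap of the groups. Of the 13, 10 had a negative difference and the median was -0.23. Their summed signal on a linear scale was 2072 to 2328 in the lateral and 1471 to 1533 in the third ventricle arrays. Such a sum mostly follows the probe sets with the highest values, here Lhfpl3, Olig1 and Pdgfra, so it partly restates the 2 calls. Of the myelin genes, Mbp and Cnp lay above the gauge on all 6 arrays, Mog on 3 of 6 and Mag on 0. Their differences were -0.12, -0.30, -0.21 and -0.23, and none passed. The lineage factors Olig1 and Olig2 differed by 0.17 (adjusted p = 0.744) and 0.09 (adjusted p = 0.754). The part of these cells in the Cntn1 value was not tested. In such bulk RNA, fewer cells of a type and less RNA per cell cannot be told apart.

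Over all 6 arrays, markers of other cell types gave no call, and without lateral ventricle array 2 some neuronal and astrocyte markers passed. Of 12 neuronal markers 0 passed in limma, and 5 had an unadjusted p below 0.05 (1 higher, 4 lower, against 12.6% of all genes). Of the 12, 5 had a positive and 7 a negative difference, and the median was -0.05. The summed linear signal was 2657 to 2795 in lateral and 2740 to 3101 in the third ventricle arrays. Dcx, a marker of young neurons, differed by -1.63 (adjusted p = 0.136), and the neuronal tubulin Tubb3 by -0.60 (adjusted p = 0.303). Without lateral ventricle array 2 both passed as lower, Dcx with -1.92 (adjusted p = 0.00523) and Tubb3 with -0.78 (adjusted p = 0.0175). In all 6 arrays Gap43 (0.60, adjusted p = 0.421) and Elavl4 (0.41, adjusted p = 0.356) went the other way, with no overlap of the groups. Neither passed without lateral ventricle array 2. The synaptic gene Syt1 and the neuronal tubulin regulator Stmn2 lay at or below the gauge on all 6 arrays. Of 8 astrocyte markers 0 passed (2 at an unadjusted p below 0.05) with a median of -0.08. Gfap and Gjb6 lay at or below the gauge on all 6 arrays, and the other 6 above it on all 6. The summed signal was 1874 to 4773 in lateral and 2790 to 3272 in the third ventricle arrays. Apoe, a lipid carrier, differed by -1.35 (adjusted p = 0.409) and the matrix protein gene Sparcl1 by 0.94 (adjusted p = 0.202). Without lateral ventricle array 2 Apoe passed as lower (-2.04, adjusted p = 0.0210) and Sparcl1 as higher (0.68, adjusted p = 0.0200). Of 8 vascular and meningeal markers 0 passed and 0 had an unadjusted p below 0.05, with sums of 218 to 237 and 226 to 235, and 6 of the 8, among them Pecam1, Cdh5 and Cldn5, lay at or below the gauge on all 6 arrays. Of 5 microglial and blood markers 0 passed and 0 had such a p, with sums of 138 to 149 and 144 to 153. Csf1r, Aif1 and Ptprc lay at or below the gauge on all 6 arrays, Alas2 lay above it on all 6, and Cx3cr1 lay above it on 2 lateral arrays and on all 3 of the third ventricle. The part of these other cell types in the values of Cntn1 and Chl1 was not tested.

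**Figure D3:**
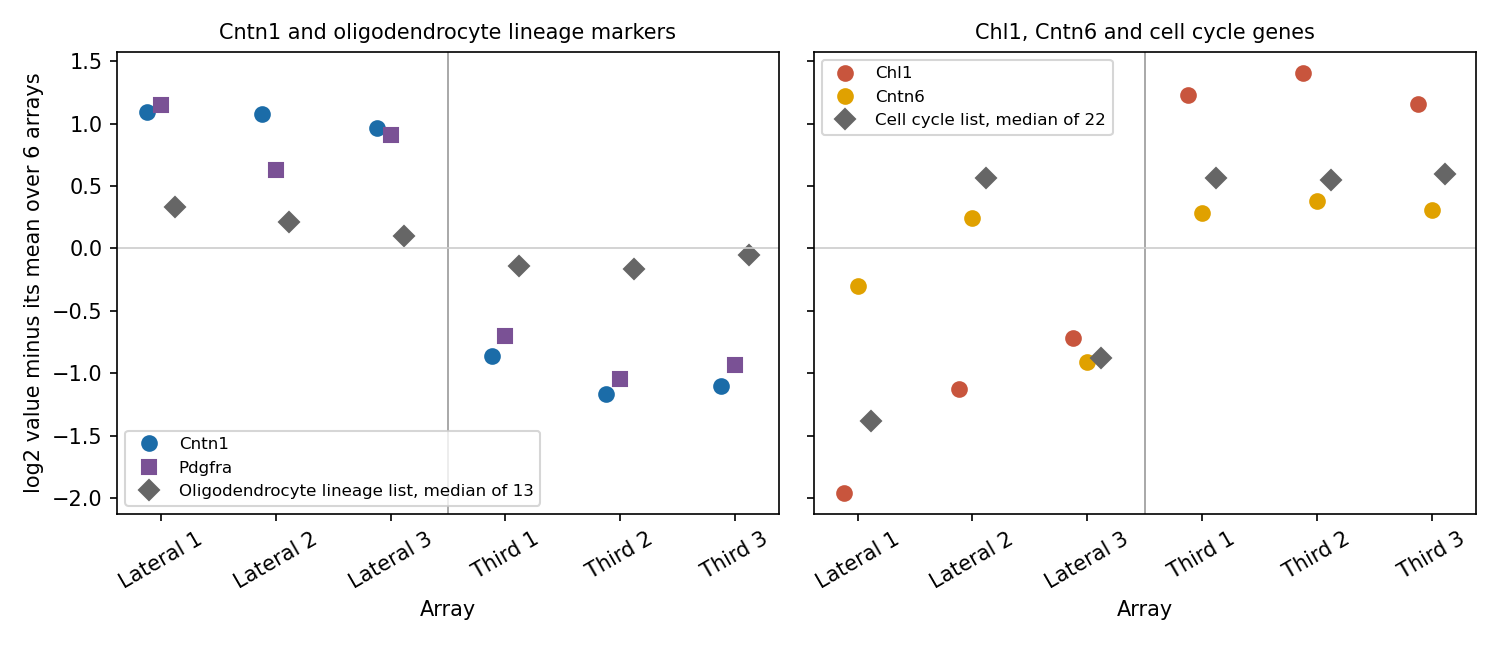
Log2 value minus its mean over 6 arrays (y axis) on each array (x axis), on the left for Cntn1, Pdgfra and the median of 13 oligodendrocyte lineage markers, on the right for Chl1, Cntn6 and the median of 22 cell cycle genes. In lateral ventricle array 2 the cell cycle median (0.56) lies within the third ventricle values and Cntn6 just below its own, while Cntn1 and Chl1 stay with the other lateral arrays.

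The genes of proteins that contactins and L1 family members bind gave 1 call. Against 0.231% of all genes called, 0.145% as higher, 1 of 38 measured partner genes passed, higher in the third ventricle cultures. It was Nrp1, neuropilin-1, the semaphorin co-receptor that binds L1cam. Nrp1 lay at 6.05, 6.01 and 5.87 in lateral and 6.73, 6.67 and 6.75 in the third ventricle arrays. All the third ventricle arrays were higher, by 0.74 on average (95% interval 0.53 to 0.95, adjusted p = 0.0316). The call held without lateral ventricle array 2 (0.75, adjusted p = 0.00351). It was lost without any other single array: lateral ventricle array 1 (adjusted p = 0.0635) or 3 (0.0899), or the third ventricle array 1 (0.160), 2 (0.187) or 3 (0.245). It was also lost with the replicate number as a block (adjusted p = 0.0698).

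Of the 18 membrane partners 1 passed, Nrp1, and the median was 0.0022. The receptor phosphatase Ptprz1, a contactin-1 ligand of glial progenitors, lay between 10.92 and 11.22 in lateral and at 10.94 to 10.96 in the third ventricle arrays, a difference of -0.08 (-0.33 to 0.17, adjusted p = 0.805). The Caspr genes Cntnap1 and Cntnap2, partners of Cntn1 and Cntn2 beside the node, lay at or below the gauge on all 6 arrays. The integrin subunit Itgb1 differed by 0.23 (adjusted p = 0.409) and the receptor Notch1 by -0.12 (adjusted p = 0.770). App, the amyloid precursor protein, which binds Cntn4, differed by -0.48 (adjusted p = 0.460). Its lateral values were 8.79, 7.93 and 9.00, against 8.14, 8.11 and 8.04 for the third ventricle, and only array 2 of the lateral cultures was at the lower level. Without lateral ventricle array 2 it passed as lower (-0.80, adjusted p = 0.00320), and from that array alone it differed by 0.16.

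Among 6 secreted and matrix ligands 0 passed in limma and the median was -0.26. At an unadjusted p below 0.05 there were 3, all lower, against 12.6% of all genes. Tnr, or tenascin-R, a matrix ligand of contactin-1 made by oligodendrocyte lineage cells, lay at 7.72, 6.07 and 6.20 in lateral and 5.35, 4.87 and 5.02 in the third ventricle arrays. The lateral arrays were all higher, array 1 by far, and the difference was -1.58 (95% interval -2.50 to -0.67, adjusted p = 0.231). Of the third ventricle arrays, 1 was above the gauge. Tnc, or tenascin-C, differed by -0.59 (adjusted p = 0.340) and the proteoglycan Ncan by -0.12 (adjusted p = 0.731). Without lateral ventricle array 2 both Tnr (-1.88, adjusted p = 0.0197) and Tnc (-0.79, adjusted p = 0.0291) passed as lower. Sema3a, the guidance ligand that acts through L1cam and Nrp1, differed by 0.33 (-0.21 to 0.86, adjusted p = 0.615).

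Of 11 cytoplasmic linkers 0 passed in limma (1 at an unadjusted p below 0.05) and the median was 0.08. The ankyrins that hold L1 family tails differed by 0.08 for Ank2 (adjusted p = 0.768) and 0.16 for Ank3 (adjusted p = 0.632), and ezrin, encoded by Ezr, by -0.01. Of 3 sheddases 0 passed, with none at an unadjusted p below 0.05. Bace1, which cleaves Chl1, differed by -0.17 (-0.47 to 0.12, adjusted p = 0.632) and Adam10, which cleaves L1cam, by 0.18 (-0.03 to 0.39, adjusted p = 0.458).

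**Figure D4:**
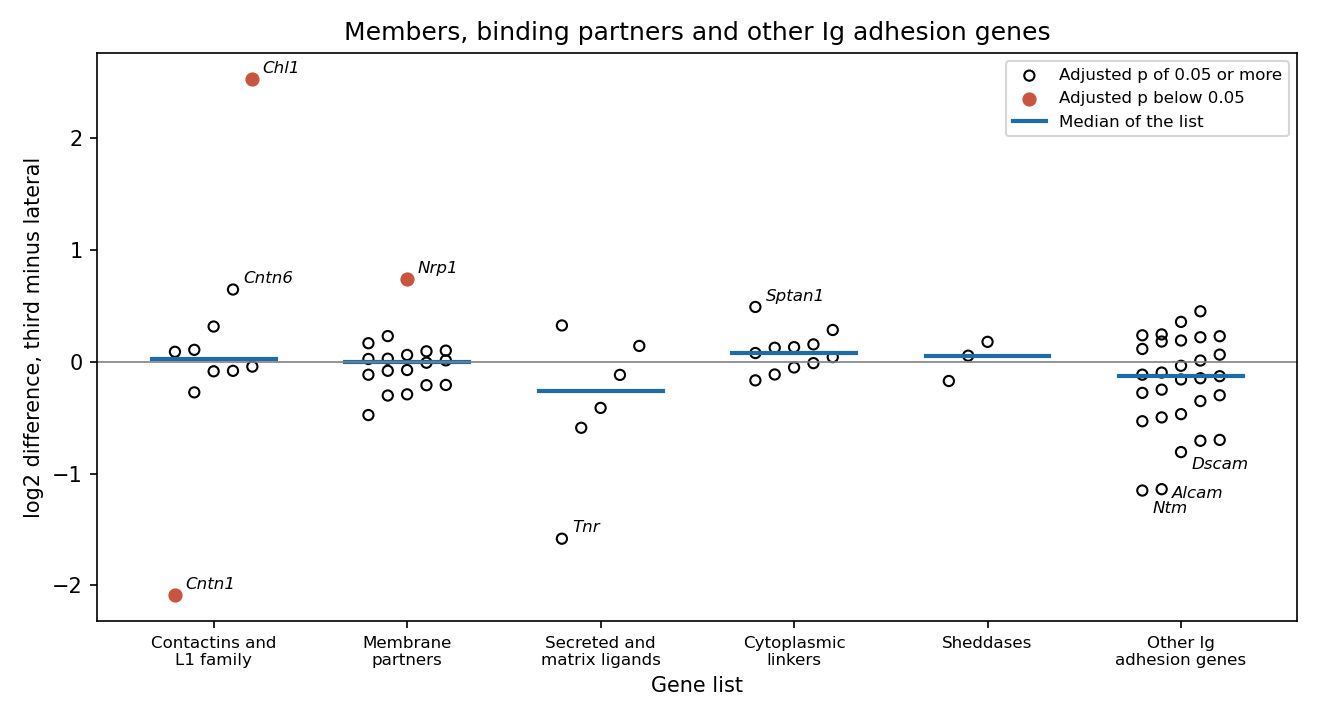
Log2 difference, the third minus the lateral ventricle (y axis), of each measured gene by list (x axis), filled where the adjusted p was below 0.05, with a bar at the median of each list. Cntn1, Chl1 and Nrp1 are the filled points, and list medians lie between -0.26 and 0.08.

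Other adhesion genes of the immunoglobulin superfamily were measured beside them. Of 29 measured, 0 passed in limma, 14 had an unadjusted p below 0.05 (4 higher, 10 lower, against 12.6% of all genes), and the groups did not overlap in 13 (against 17.0% of all genes). The median was -0.13, the range -1.15 to 0.45, against -2.09 for Cntn1 and 2.53 for Chl1. The largest were those of Ntm, or neurotrimin (-1.15, adjusted p = 0.218), Alcam (-1.14, adjusted p = 0.0609) and Dscam (-0.81, adjusted p = 0.152). Alcam, an adhesion molecule of axons and progenitors, lay at 9.00, 8.44 and 8.48 in lateral and 7.74, 7.37 and 7.38 in the third ventricle arrays, with no overlap. Ntm lay at 8.83, 7.72 and 8.83 in lateral and 7.16 to 7.49 in the third ventricle arrays, with array 2 near the third ventricle. Ncam1, the neural cell adhesion molecule that acts with L1cam, differed by -0.15 (-0.50 to 0.21, adjusted p = 0.744). When lateral ventricle array 2 was left out, 2 of the 29 passed as higher and 6 as lower, against 4.37% and 3.88% of all genes. Among the latter were Alcam (-1.24, adjusted p = 0.00427), Ntm (-1.52, adjusted p = 0.000382) and Dscam (-0.79, adjusted p = 0.0407).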

How the data were processed

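The authors deposited a log2 value for every probe set. Per the submitters' processing notes, RMA and Affymetrix Expression Console 1.1 were used, and no other setting is stated. RMA compresses dim signals, and cDNA was amplified from 500 pg to 50 ng of RNA, which can add spread. Of 35556 probe sets, 21789 had 1 gene symbol, 1621 had several and 12146 were unnamed. Each gene took, of its probe sets with 1 symbol, the brightest on average. Regions were compared with limma 3.58.1 in R 4.3.3 (lmFit, eBayes) over 19938 genes, with Benjamini-Hochberg adjustment and a threshold of 0.05. The fit was tested on simulated data. With 3 arrays a group, the smallest two-sided p of an exact permutation test is 0.1. The number of arrays limits precision.

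The members and lists were chosen with earlier results of these data known. Named were all 10 members, 17 further genes picked by role, every passing list gene, the 3 largest differences of the comparison list, the 5 nearest profiles and 2 neighbours on each side of Cntn1 and Chl1. Lineage markers and genes named for the fit without lateral ventricle array 2 were picked with their values seen. Some genes of the lists are not reported here. No batch was given in the labels.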

Additional observations from a re-analysis of the deposited data

How the results depend on the processing

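The count of 2 passing members was the same under 9 alternatives (2 other probe set rules, leaving out the dimmest 40% of genes, 2 normalizations, 2 variance priors, array weights and the replicate block) and from lateral ventricle array 2 alone, a single array assumed to vary like the others. The 2 probe set rules could not change the values of a member, because each member has 1 probe set. The count ranged from 1 to 3 when 1 array was left out. Cntn1 passed in each of these fits (adjusted p of 0.000253 to 0.0139 with 1 array left out), and Chl1 in all but the 3 fits that left out an array of the third ventricle (0.00177 to 0.167). The exact permutation test gave 0.1 for both, the smallest it can give. Passing partners ranged from 0 to 4 with 1 array left out and were 0 with the replicate block and from lateral ventricle array 2 alone. Passing genes of the other adhesion list ranged from 0 to 8, with 1 under the robust prior, 3 with array weights and 1 with the block. Over all genes the count ranged from 4 to 1644, and was 158 with array weights and 57 with the replicate block. The cause was not tested. Differences near 0 turned in sign: Cntn3 ranged from -0.17 to 0.066, Cntn4 from -0.094 to 0.031 (0.0032 from lateral ventricle array 2 alone) and L1cam from -0.21 to 0.0045. Same-numbered arrays had deviations that correlated at 0.24, 0.11 and 0.07 over all genes. Each array correlated best with its own number, a hint from the data only, and the labels give no pairing. Signal over background limits Cntn3, Cntn4, Cntn5, Cntn2 and L1cam.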
